A study of Mus musculus with 48 samples.

Results

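The 80 genes described here were those whose RNA stood highest in the hypothalamus of late-period mice that moved freely in quiet surroundings, compared with mice in all other conditions of the study. They were chosen from the measured values: among 12550 genes with a mean of at least 1 RPKM (reads per kilobase of transcript, scaled to the mapped reads of a library) over 48 libraries, genes were ranked by the late quiet free-moving mean minus the highest mean of the other 7 series, on a log2(RPKM + 0.5) scale. The first 100 ranks were taken, and 20 genes were then dropped: Gabrb2, Klhl11, Gpr165, Kcna1, Scn2a and 15 protocadherin genes. The margin that chose the 80 genes ran from 0.66 to 1.63 log2 units, with a median of 0.79. That these genes were high in the chosen series is therefore the way they were picked and not a finding. No test is given for any difference from that series.

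The study measured total RNA from the hypothalamus of male C57BL/6N mice (C57BL/6 in the sample labels), with 3 mice pooled into each library, so that the spread between libraries is a spread between pools. No genetic change was labelled. There were 8 series of 6 libraries each. Every series held the title numbers 1, 5, 9, 13, 17 and 21, whose unit the labels do not give. The early series came from 2-month-old mice kept in quiet (10 dBA) at normal air pressure. Of these, 2 series moved freely and 2 were hind-limb unloaded, a tail-suspension model of weightlessness in which the fore limbs still carry weight, and each pair carried the same labels. The late series were labelled as 3-month-old mice, although the series' design text gives every mouse as 2 months old, so whether age differed is in doubt. Each late condition was a single series: free-moving or unloaded, either in quiet at normal pressure or under 85 dBA noise at 0.9 atmospheres. Noise and low pressure always came together, and the labelled age changed with period, so these cannot be told apart. Likewise, what sets the late quiet free-moving mice apart cannot be told apart from anything else particular to that single series of libraries.

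The hypothalamus regulates feeding, body temperature, hormone release, stress responses and sleep through many small populations of neurons, most of which use neuropeptides. Such neurons depend on the secretory pathway, in which the Golgi apparatus and its phosphoinositide lipids sort peptides into dense-core vesicles, and on receptors that act through cyclic AMP. By roles assigned by hand with the values known, 7 of the 80 genes belong to the secretory pathway and transport, 6 to receptors and cyclic AMP, 5 to phosphoinositide and lipid signalling and 14 to transcription, chromatin and RNA. All 80 were protein coding in the GENCODE M21 annotation of mouse build GRCm38, to which they were matched by symbol. The authors' own build is not given in the sources used here, so the positions below belong to that annotation.

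The libraries differed in composition in a way that touches every value below. Transcripts of the 13 mitochondrially encoded genes took 11.5% ± 1.68 (SD, n = 6) of the RPKM sum in the late quiet free-moving libraries. The late quiet unloaded libraries had 14.03% ± 1.32. In the other 6 series the means ran from 20.5% to 44.5%, with single libraries from 10.49% to 62.4%. The late quiet free-moving libraries spanned only 8.95% to 13.5%. Sequencing depth, estimated from the steps between low values, was 28.4 to 55.2 M reads per library (M, 1e+06 reads). All 12 hypothalamic marker genes were listed, and their summed level had a median of 2223 RPKM (1835 to 2928) in the late quiet free-moving libraries and 3045 RPKM (2696 to 4207) in the late quiet unloaded libraries, against series medians of 5041 to 7622 elsewhere. Summed endothelial markers, all 5 listed, had a median of 72.9 RPKM (54.5 to 85.4) in the first of these and 100.9 RPKM (82.4 to 117) in the second. Summed neuron markers, all 6 listed, were 1052 to 1302 RPKM and 1076 to 1250 RPKM in these series. Summed GABA neuron markers, all 3 listed, had the same 3 highest series and the same lowest series as the 80 genes. Their medians were 258 RPKM (234 to 292) in late quiet free-moving mice, 229 in late quiet unloaded mice, 211 in the first early unloaded series and 87.3 to 127 in the other 5. Of those 5 the first early free-moving series was highest, at 127 RPKM, whereas it was next to lowest for the 80 genes. Summed blood markers, all 7 listed, had medians of 777 and 1198 RPKM in the 2 late quiet series and 828.9 to 2333 elsewhere, and summed striatum markers, all 6 listed, 134 and 209 RPKM, and 145 to 254 elsewhere. Summed thalamus markers, all 5 listed, had medians of 31.8 and 38.5 RPKM in the 2 late quiet series and 11.7 to 18.6 elsewhere. Their libraries ran from 13.6 to 57.6 RPKM and from 14.85 to 44.1 RPKM in those 2 series. Oligodendrocyte markers, all 6 listed, had medians of 1772 and 1949 RPKM there and 1988 to 3168 elsewhere. Oligodendrocyte precursor markers, all 4 listed, had 159 and 163 RPKM, and 109 to 163 elsewhere. None of the 80 genes was on a marker list, and the part of these differences in the results was not tested. In bulk tissue, fewer cells of a type and less RNA per cell cannot be told apart.

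Sequences of 2 promoters are shown because their genes had the largest margins of the ion transporters and of the lipid enzymes, and because the 80 genes moved together. They are the RefSeq windows (GRCm38.p6) from 250 bases before to 50 bases after the first listed start. The Slc9a7 window is chrX:20291778-20292077, minus strand, with capitals marking the GC box GGGCGG on either strand. The Sacm1l window is chr9:123529503-123529802, plus strand, with capitals marking CCAAT.
Slc9a7: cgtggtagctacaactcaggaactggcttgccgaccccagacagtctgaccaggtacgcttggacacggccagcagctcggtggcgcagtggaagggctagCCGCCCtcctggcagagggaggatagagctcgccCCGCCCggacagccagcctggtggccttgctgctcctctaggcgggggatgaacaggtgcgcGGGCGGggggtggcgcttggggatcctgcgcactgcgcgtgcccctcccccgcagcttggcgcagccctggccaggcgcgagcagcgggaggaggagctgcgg
Sacm1l: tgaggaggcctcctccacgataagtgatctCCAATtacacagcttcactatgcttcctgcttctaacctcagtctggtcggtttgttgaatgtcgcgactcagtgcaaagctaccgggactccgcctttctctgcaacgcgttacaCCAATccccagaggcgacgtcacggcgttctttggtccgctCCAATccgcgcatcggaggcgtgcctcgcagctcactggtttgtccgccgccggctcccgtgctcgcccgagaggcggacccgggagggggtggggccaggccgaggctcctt
Such windows were listed for 58 of the 80 genes and for 9993 of the 12550 genes. GGGCGG was present in 40 of the 58 (69%), against 65.7% of all windows, and CCAAT in 19 (32.8%), against 38.2%. The E-box CACGTG, bound by clock and other basic helix-loop-helix factors, was present in 6 (10.3%), against 10.3%. The clock-related letters TTATGTAA were in 0 of 58 windows, against 0.44%. The cyclic AMP response element TGACGTCA was in 3.45%, against 3.24%. Both strands were searched, and matches of different motifs may overlap. The promoters of the 80 genes thus held these letters about as often as promoters in general. Their median GC content was 64.3%, against 61.3%.

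The 3′ untranslated regions were searched for TGTANATA, the letters recognised by the Pumilio RNA-binding proteins, which repress and destabilise their target messages. Among the 75 of the 80 genes with at least 100 annotated bases, 30 (40%) held a match, against 3050 of 11610 genes (26.3%). Over all annotated regions, short ones included, the median length was 1140 bases for the 80 genes and 982 for 12369 genes. Short windows from 4 genes show the match in capitals.
Sacm1l: tgttctgacaTGTAAATAagcatagttt
Usp33: tttgtagcacTGTAAATActttggcttc
Cpeb3: ccttttgtttTGTAAATAaatgtgcccc
Stk24: gtgtacagatTGTATATAgcgtcatttt
AATAAA, the usual signal for the cleavage that ends a message, occurred in 64% of these regions, against 81% of all genes. The chosen transcript can end short: that of Tmem178b has a region of 126 bases, while the gene has 9729 exonic bases. Whether messages in these libraries lack the signal was not tested. A match is only a match of letters and shows no binding.

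**Figure D1:**
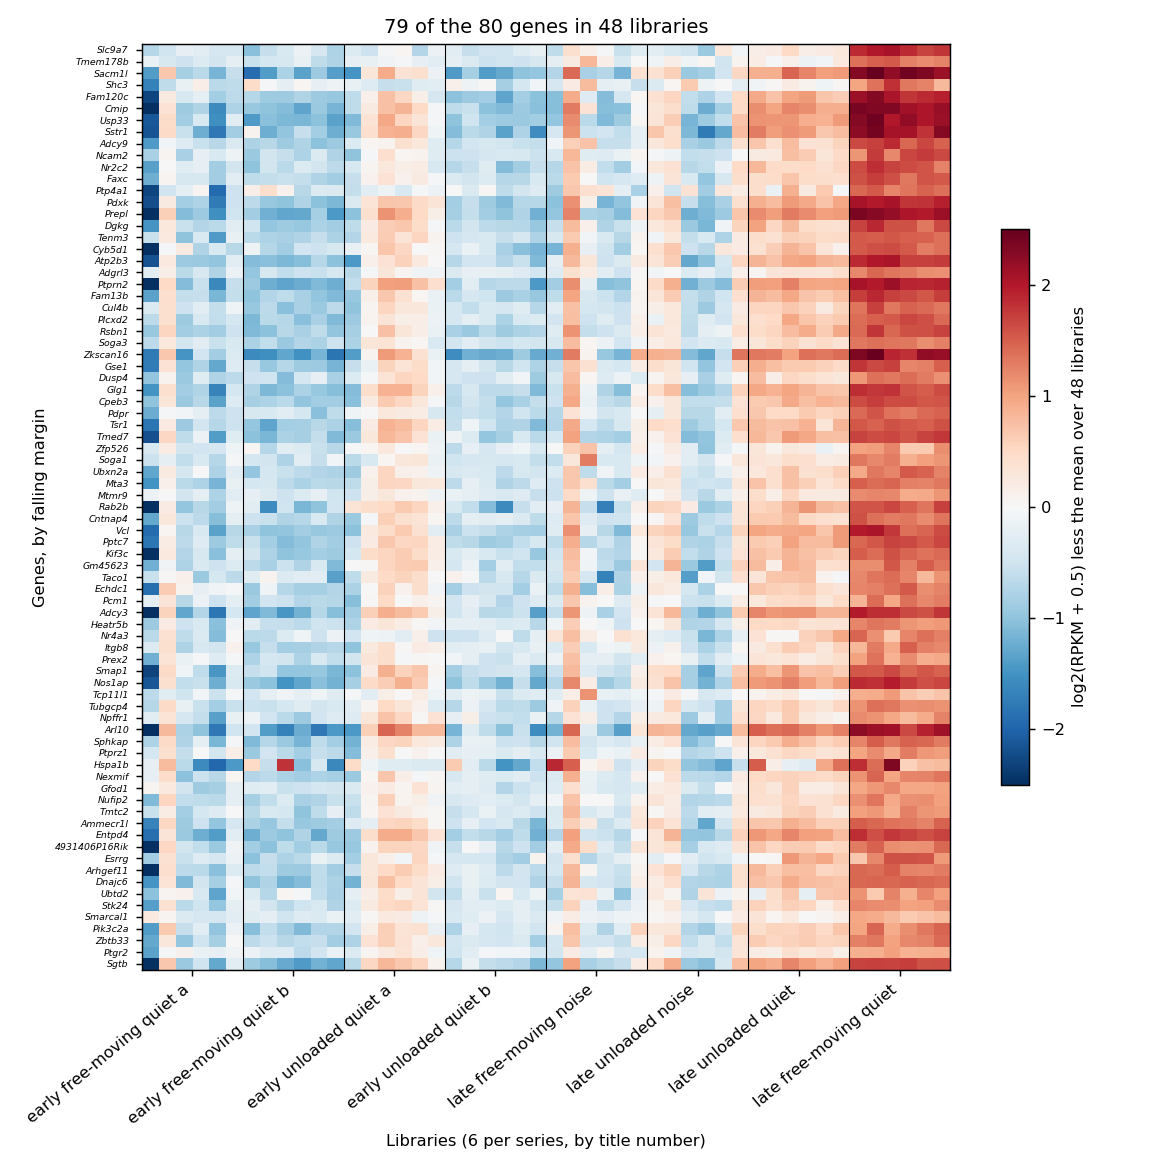
Each row is 1 of 79 of the 80 genes, ordered by falling margin, and each column is 1 of the 48 libraries, grouped into 8 series of 6. Colour gives log2(RPKM + 0.5) less the gene's mean over all libraries, limited at 2.5 either way. The last block, which chose the genes, is high throughout, and most genes are next highest in the late quiet unloaded block.

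The ion transporter genes Slc9a7 and Atp2b3 were followed first. Slc9a7, on chromosome X at 20105754 to 20291807, encodes a sodium and proton exchanger of the Golgi apparatus and had the largest margin of the 80 genes. Its 6 late quiet free-moving libraries ran from 3.87 to 5.17 RPKM, with a median of 4.45. The late quiet unloaded libraries ran from 1.03 to 1.41 RPKM, and no library of the other 7 series exceeded 1.41. Slc9a7 thus stood low everywhere else, with series medians from 0.467 to 0.714 RPKM in the 6 remaining series, whose libraries overlapped. Atp2b3, which encodes a plasma membrane pump that expels calcium, had a late quiet free-moving range of 14.9 to 18.8 RPKM and a median of 15.9. Its late quiet unloaded libraries ran from 7.15 to 8.88 RPKM, and its late noise free-moving libraries from 2.79 to 7.68 RPKM.

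The receptor and cyclic AMP genes were Sstr1, Npffr1, Adgrl3, Adcy9, Adcy3 and Sphkap. Sstr1, a receptor for the inhibitory peptide somatostatin, lies on chromosome 12 at 58211772 to 58214444. Its late quiet free-moving libraries ran from 7.30 to 11.3 RPKM with a median of 9.50, and its late quiet unloaded libraries from 3.06 to 4.93 RPKM with a median of 4.14. In the first early free-moving series Sstr1 ranged from 0, listed in the number 1 library, to 2.61 RPKM, with a low median of 0.595. That number 1 library stood low over the 80 genes as a set. Their median less that of all genes with a mean of at least 1 RPKM was -2.41 log2 units there. The median of this value over its series was -1.66. The library also had the lowest estimated depth, 28.4 M reads, and it enters every early free-moving mean below. Adcy9, an adenylyl cyclase that makes cyclic AMP, ran from 3.63 to 5.00 RPKM in the late quiet free-moving libraries and from 1.46 to 2.09 in the late quiet unloaded libraries. The related cyclase gene Adcy3 was more abundant, at 11.8 to 15.6 RPKM against 6.77 to 8.97 RPKM. Npffr1, a receptor for RF-amide peptides, was the scarcest of the group, with 2.22 to 3.21 RPKM against 1.17 to 1.94. The ranges did not overlap between those series for any of these 4 genes. Such separation, here and below, was largely fixed by the rule. It held for 76 of the 80 genes, and no share over all genes was computed for it.

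Among the phosphoinositide and lipid genes, Sacm1l stood out. It encodes the phosphatase that removes phosphate from phosphatidylinositol 4-phosphate in the endoplasmic reticulum and Golgi, and it lies on chromosome 9 at 123529759 to 123592600. The late quiet free-moving libraries held 23.4 to 30.2 RPKM, with a median of 26.1, and the late quiet unloaded libraries held 9.37 to 14.1 RPKM, with a median of 10.52. The second early free-moving series had the lowest median, 1.58 RPKM, and the late noise free-moving median was 2.72 RPKM, although its number 5 library reached 13.8. The ratio of mean RPKM between the late quiet free-moving and the early free-moving series was 10.4. Dgkg, which encodes a diacylglycerol kinase, ran from 4.20 to 6.53 RPKM against 1.97 to 3.31 in the late quiet unloaded libraries. Plcxd2 was at 13.2 to 16.1 against 6.44 to 9.70 RPKM. Mtmr9, a catalytically inactive myotubularin partner, had the smallest ratio of this group, 2.805, to the early free-moving mean.

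Adaptors and signalling enzymes made up a further group. Cmip, an adaptor-like protein first described in T cells, lies on chromosome 8 at 117257064 to 117459430. Its late quiet free-moving libraries ran from 54.4 to 69.5 RPKM with a median of 64.0, and its late quiet unloaded libraries from 24.8 to 31.1 RPKM. The lowest library of the whole study, number 1 of the first early free-moving series, had 1.28 RPKM. The ratio of the late quiet free-moving to the early free-moving mean was 9.43. Shc3, the neuronal Shc adaptor that couples receptor tyrosine kinases to Ras, behaved differently. It ran from 3.58 to 7.73 RPKM in the late quiet free-moving libraries, and its highest library elsewhere reached 3.55 RPKM, so the groups all but touched. Nos1ap, an adaptor of neuronal nitric oxide synthase, ran from 8.07 to 10.4 RPKM against 4.48 to 6.22 in the late quiet unloaded libraries. Dusp4, a phosphatase that inactivates MAP kinases, was at 2.57 to 3.28 RPKM against 1.13 to 1.98.

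**Figure D2:**
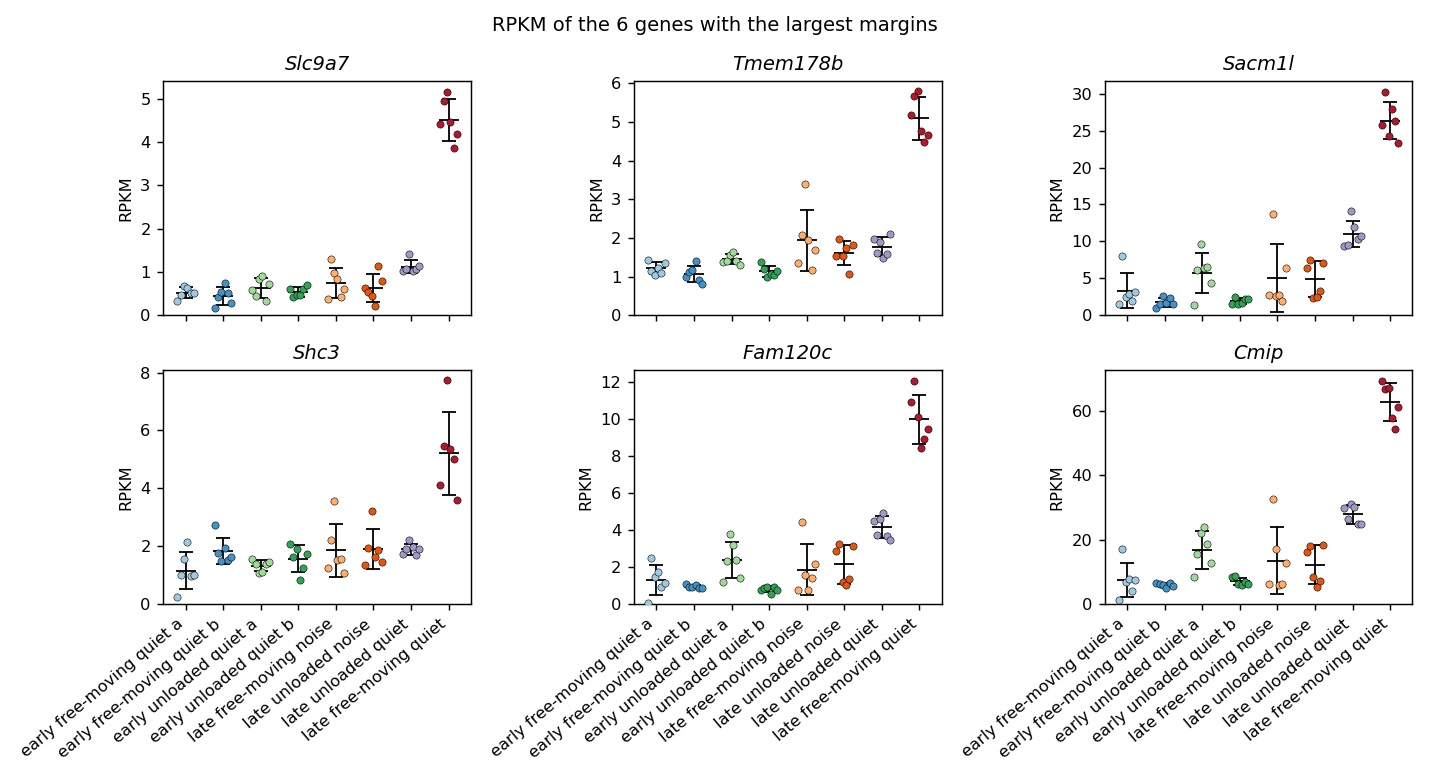
RPKM on a linear axis for the 6 genes with the largest margins, with 1 point per library, the series mean as a horizontal mark and the SD as error bars (n = 6 per series). In all 6 panels every late quiet free-moving library lies above all libraries of the other series, most narrowly for Shc3, and the number 5 library of the late noise free-moving series is high for Sacm1l and Cmip.

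The secretory pathway and transport genes included the most abundant of the 80. Prepl, a serine hydrolase related to prolyl oligopeptidases, had the highest late quiet free-moving mean. Its late quiet free-moving libraries held 73.7 to 94.5 RPKM with a median of 83.3, and its late quiet unloaded libraries 37.4 to 45.1 RPKM. Prepl varied widely in the first early free-moving series, from 2.16 RPKM in its number 1 library to 27.6 RPKM. In the second it varied narrowly, from 6.398 to 9.998 RPKM. Ptprn2, a phosphatase-like protein in the membrane of dense-core vesicles, had a late quiet free-moving median of 44.9 RPKM (43.0 to 51.0) and a late quiet unloaded median of 23.0 RPKM (22.4 to 27.4). The Golgi and carrier genes Glg1 and Tmed7 had late quiet free-moving medians of 33.6 and 32.8 RPKM, against 18.5 and 17.6 in the late quiet unloaded series. Kif3c, a kinesin motor subunit, was at 35.2 to 41.1 RPKM against 19.8 to 24.5.

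Of the ubiquitin and chaperone genes, Usp33 had the largest margin. It encodes a deubiquitinating enzyme and lies on chromosome 3 at 152346478 to 152393617. Its late quiet free-moving libraries held 12.6 to 17.2 RPKM, against 5.50 to 6.68 RPKM in the late quiet unloaded libraries. Dnajc6, the neuronal auxilin that helps to uncoat clathrin vesicles, was much more abundant and tight, at 51.1 to 54.2 RPKM against 31.1 to 36.9. Its late quiet free-moving libraries differed by a factor of only 1.06. Sgtb, a co-chaperone at the edge of the ranking, ran from 22.4 to 24.5 RPKM against 13.4 to 17.2. Hspa1b, the inducible heat shock protein of the Hsp70 family, had the largest ratio of highest to lowest late quiet free-moving library of the 80 genes. Its late quiet free-moving libraries ran from 6.46 to 23.0 RPKM, a factor of 3.56, and overlapped with the late quiet unloaded range of 3.23 to 12.9 RPKM. Ubtd2, a ubiquitin-domain protein, overlapped too, at 3.80 to 5.97 against 1.85 to 3.98 RPKM. Hspa1b has a near-identical neighbour, Hspa1a, so reads could be split between them in ways not known here.

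Adhesion and surface genes included Ncam2, a neural cell adhesion molecule, at 3.79 to 6.23 RPKM in the late quiet free-moving libraries against 1.82 to 2.86 in the late quiet unloaded ones. Tenm3, a teneurin that guides synaptic partners, ran from 5.66 to 6.50 against 2.60 to 3.12 RPKM. Cntnap4, a neurexin-like protein of inhibitory synapses, ran from 8.88 to 11.95 against 4.84 to 6.62 RPKM. All 3 sets of libraries were separate, which the rule largely fixed. Among transcription and RNA regulators, Nr2c2, an orphan nuclear receptor, ran from 4.66 to 7.40 against 2.36 to 3.37 RPKM. Cpeb3, which controls translation by binding message tails, ran from 10.9 to 12.5 against 5.62 to 7.03 RPKM. Zkscan16, a zinc-finger protein, had the largest ratio to the early free-moving mean, 11.96. Nr4a3, an activity-induced nuclear receptor, overlapped, with 2.22 to 4.21 RPKM against 1.26 to 2.88. Pdxk, the kinase that makes active vitamin B6, led the metabolic genes at 48.3 to 58.3 against 22.7 to 28.9 RPKM.

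The 5 GTPase regulators had late quiet free-moving values of moderate height and a narrow span of margins, from 0.69 to 0.79 log2 units. Arl10, the most abundant of them, ran from 20.0 to 30.5 RPKM in the late quiet free-moving libraries against 13.5 to 18.02 in the late quiet unloaded libraries. Its lowest library in the study, at 0.0409 RPKM, was again number 1 of the first early free-moving series. Smap1, which stimulates the GTPase of Arf proteins, ran from 19.4 to 22.8 against 10.8 to 15.4 RPKM. Arhgef11, an exchange factor for RhoA, ran from 11.8 to 14.4 against 6.94 to 8.65 RPKM, and Rab2b, a Rab protein of the early secretory route, from 6.77 to 8.85 against 3.67 to 5.62 RPKM. Prex2, an exchange factor for Rac, was scarcer, at 3.31 to 4.85 against 1.89 to 2.35 RPKM. All 5 were separate between those series, which the rule largely fixed.

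The 14 transcription, chromatin and RNA genes had differences from the late quiet unloaded series of 0.66 to 1.08 log2 units. Mta3, a subunit of a chromatin remodelling and deacetylase complex, ran from 16.9 to 20.0 against 8.73 to 11.6 RPKM. Smarcal1, which anneals DNA strands at stalled replication forks, ran from 14.9 to 18.5 against 9.31 to 11.7 RPKM, and its ratio to the early free-moving mean was the lowest of the 80 genes, 2.14. Zbtb33, which binds methylated DNA, ran from 4.35 to 5.89 against 2.95 to 3.25 RPKM. Esrrg, an orphan nuclear receptor, ranged from 2.90 to 5.91 against 1.63 to 3.99 RPKM and overlapped. Among the 6 metabolic genes, Pdpr, a regulator of the pyruvate dehydrogenase phosphatase, ran from 3.37 to 4.25 against 1.75 to 2.06 RPKM. Taco1, an activator of the translation of a mitochondrially encoded oxidase subunit, ran from 5.91 to 9.12 against 3.04 to 5.61 RPKM. Ptgr2, a prostaglandin reductase, ran from 10.6 to 11.9 against 6.24 to 7.71 RPKM. The 2 centrosome genes were Pcm1, a scaffold of centriolar satellites, at 7.85 to 11.6 against 5.00 to 6.07 RPKM, and Tubgcp4, at 4.82 to 5.86 against 2.52 to 3.35 RPKM.

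Genes of less certain function completed the set. Tmem178b was at 4.48 to 5.81 RPKM against 1.49 to 2.10 in the late quiet unloaded libraries. Its second-highest series was instead late noise free-moving, with a median of 1.82 RPKM and a highest library of 3.40. Fam120c was at 8.44 to 12.1 against 3.45 to 4.89 RPKM, and Faxc at 2.96 to 4.11 against 1.36 to 1.75 RPKM. At the edge of the ranking, the margins just inside were 0.6627 for Zbtb33, 0.6621 for Ptgr2 and 0.6612 for Sgtb, and those just outside were 0.6608 for Zfp382, 0.6599 for Nrcam and 0.6595 for Dsel. The set thus ended within a continuum and not at a gap.

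Across the set, all 6 late quiet free-moving libraries lay above the other 42 for 73 of the 80 genes, a property of 10.7% of the 12550 genes. The rule fixed this largely by itself. The exceptions were Zfp526, Soga1, Nr4a3, Tcp11l1, Hspa1b, Esrrg and Ubtd2. The ratio of mean RPKM to the late quiet unloaded series had a median of 1.82 (1.60 to 4.02), and the ratio to the early free-moving series a median of 4.72 (2.14 to 11.96). The late quiet unloaded series was second highest for 78 genes, and Tmem178b and Zfp526 had late noise free-moving in that place. For those 78 genes the late quiet unloaded mean was above all 6 remaining series means, which held for 62.7% of the 12550 genes. The lowest series was the second early free-moving one for 57 genes and the first for 15.

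The median of the 80 genes in each library, averaged over the 6 libraries of a series, gave an order of the series on the log2(RPKM + 0.5) scale. It was 3.11 ± 0.0921 (SD, n = 6) in the late quiet free-moving libraries and 2.28 in the late quiet unloaded ones, whose libraries ran from 2.12 to 2.40. Then followed the first early unloaded series at 1.79, late noise free-moving at 1.61, late noise unloaded at 1.58, the second early unloaded at 1.18, the first early free-moving at 1.11 and the second early free-moving at 1.00. The late quiet unloaded libraries overlapped with the late noise free-moving ones, which ran from 1.11 to 2.48, and the ranges of neighbours further down the order overlapped too. The 80 genes sat below the median of all 12550 genes in every series, by 0.17 log2 units in late quiet free-moving mice, by 0.98 in late quiet unloaded mice and by 1.31 to 1.74 elsewhere. The difference between the late quiet free-moving and unloaded series had a median of 0.79 log2 units over the 80 genes and -0.02 over all tested genes. Against both early free-moving series the medians were 2.03 and 0.43.

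**Figure D3:**
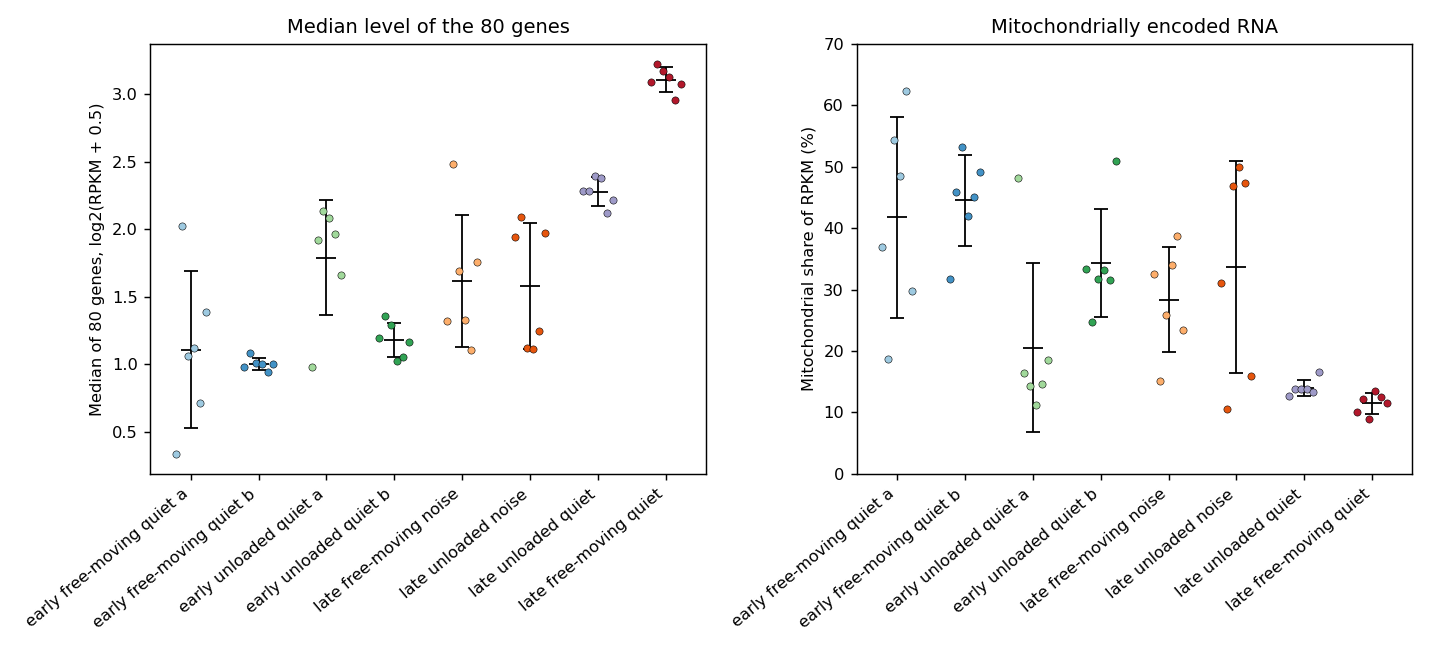
The left panel gives the median log2(RPKM + 0.5) of the 80 genes and the right panel the percent of the RPKM sum in mitochondrially encoded genes, with 1 point per library, the series mean as a horizontal mark and the SD as error bars (n = 6). The late quiet free-moving series is highest on the left at 3.11 and lowest on the right at 11.5%, and early libraries spread widely on both.

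Comparisons without the late quiet free-moving series asked how the genes behaved in data that did not raise them to the top of the ranking. They are not wholly free of the rule, which also used the highest of the other 7 means. The test was limma on log2(RPKM + 0.5) over 13685 genes, with a call at a Benjamini-Hochberg adjusted p below 0.05. Early unloading was tested first. Of the 80 genes, 48 (60%) were higher in the early unloaded than in the early free-moving mice and 0 were lower, against 50.9% of all tested genes higher and 1.88% lower. The median difference was 0.43 log2 units over the 80 genes and 0.23 over all genes. A share of 60% is near the background of 50.9%. The 2 early pairs differed in size: the effect in the second pair less that in the first had a median of -0.52 log2 units over the 80 genes, against -0.11 over all genes. By limma 0 of the 80 genes were called for this difference, against 0.0219% of all genes. An unadjusted limma p below 0.05 was found for 26 of the 80. No share over all genes was computed for such unadjusted counts, so nothing is read from them.

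All 80 differences were above 0, beside 86.8% of those of all tested genes. Against the 50.9% of all genes called higher, the calls took in all 7 secretory and transport genes, all 5 GTPase regulators and 5 of the 6 receptor and cyclic AMP genes. Of the 6 metabolic genes 1 passed the threshold, with a group median of 0.28 log2 units, and of the 2 centrosome genes 0, with a median of 0.18. These role groups were made by hand with the values known, no difference between them was tested, and none of these calls held with the mitochondrial share as a term. Ptprn2 had a first early free-moving median of 6.22 RPKM (0.725 to 16.1) and a first early unloaded median of 17.9 RPKM (7.15 to 23.8). In the second pair its medians were 4.52 (4.22 to 5.76) and 6.80 RPKM (3.82 to 9.25). The libraries overlapped in both pairs, and the unloaded median was higher in both. Its difference was 1.01 ± 0.24 log2 units (SE, limma adjusted p = 0.00433). Adcy3 was higher by 0.94 ± 0.22 (limma adjusted p = 0.00431), with medians of 1.54 and 5.74 RPKM in the first pair and 1.34 and 2.17 in the second. Sgtb was higher by 0.84 ± 0.21 and Kif3c by 0.73 ± 0.18 (limma adjusted p = 0.00471 for each). The difference for Shc3 was 0.02 ± 0.14 log2 units (limma adjusted p = 0.894).

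The 80 genes moved with the mitochondrial share here. That share was lower in the early unloaded series (means of 20.5% and 34.3%) than in the early free-moving series (41.8% and 44.5%). With the share as a term in the fit, 0 of the 80 genes were called, with mitochondrial genes removed 30, and under quantile normalization 21. Counts under other settings, here and below, are given without the share of all genes called in the same setting. They do not tell a loss particular to the 80 genes from a general loss of calls. Leaving out the libraries of title number 9, or those of title number 17, left 0 called. The part of the share in the difference was not tested beyond this.

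Late noise with low pressure was next compared with early quiet in free-moving mice, where period, age, noise and pressure differ together. Of the 80 genes, 56 (70%) were higher and 0 lower, against 46.1% higher and 0.446% lower over all genes. The median difference was 0.50 log2 units, against 0.27 over all genes. Of the 80 differences 79 were above 0, beside 89.8% of those of all tested genes. Nr4a3 had a late noise median of 1.63 RPKM (1.22 to 2.42), against 0.732 (0.311 to 1.75) and 0.777 (0.583 to 1.10) in the early free-moving series. Its noise libraries lay above all those of the second early series and overlapped with the first. The difference was 0.72 ± 0.16 log2 units (limma adjusted p = 0.00605). Tmem178b was higher by 0.53 ± 0.11 (limma adjusted p = 0.00555), Atp2b3 by 0.96 ± 0.24 (limma adjusted p = 0.00700) and Nufip2, a partner of the fragile X protein, by 0.61 ± 0.15 (limma adjusted p = 0.00752). With the mitochondrial share as a term 0 genes were called, with mitochondrial genes removed 27, and under quantile normalization 3. Without the number 5 library of the noise series, which had a mitochondrial share of 15.1%, 17 were called. Without all libraries of number 5, 9 or 21, 24, 22 and 36 were called.

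**Figure D4:**
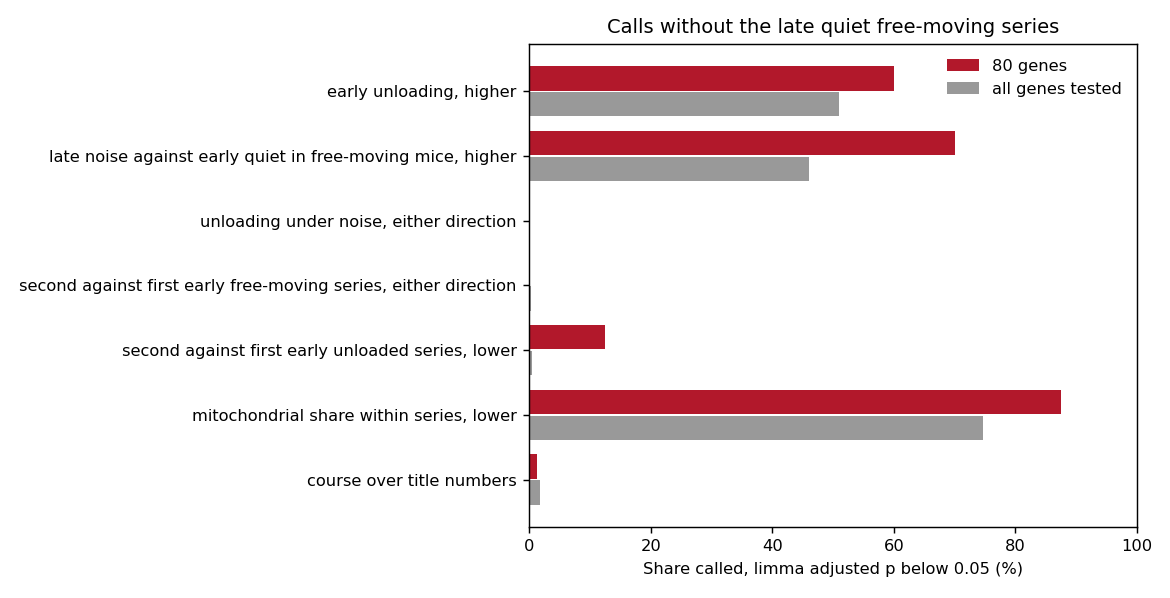
Bars starting at 0 give the percent of the 80 genes (red) and of all 13685 tested genes (grey) called by limma at an adjusted p below 0.05 in the direction named. The bars read 60% against 50.9% for early unloading, 70% against 46.1% for late noise, 12.5% against 0.402% for the second against the first early unloaded series and 87.5% against 74.7% for the mitochondrial share.

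Unloading under noise moved none of the 80 genes past the threshold by limma, against 0.0146% of all genes. An unadjusted p below 0.05 was found for 3 of the 80, with no share over all genes computed. Under quantile normalization 1 was called and in a fit of only the compared series 2. The median difference was 0.0046 log2 units, with a range from -0.97 to 0.35 and a median standard error of 0.21, so that changes of moderate size could not be resolved. The effect of unloading under noise was itself compared with that of early unloading. It was called lower for 6 of the 80 genes (7.5%), Nr4a3, Adcy3, Itgb8, Nufip2, Zfp526 and Ptprz1, against 24.6% of all genes. The median of this difference was -0.46 log2 units over the 80 genes and -0.34 over all genes. The lower share called therefore does not mean a smaller shift.

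Comparisons with the late quiet unloaded series share their reference with the rule, since for 78 genes its mean was the value subtracted. The selection therefore favours these directions. The counts are given as a description, and nothing is read from their excess over all genes. Under noise in unloaded mice 71 of the 80 genes were lower past the threshold, beside 45.6% of all genes. In late against early unloaded mice in quiet 74 were higher past it, beside 38.8% of all genes. With the mitochondrial share as a term the counts were 0 and 40, and the first was 34 without title number 9 and 23 without number 13.

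Series with the same labels were also compared. Between the early free-moving series 0 of the 80 genes differed by limma, against 0.256% of all genes. An unadjusted p below 0.05 was found for 13 of the 80, with no share over all genes computed. Up to 6 were called under other settings. Between the early unloaded series 10 genes (12.5%) were lower in the second, against 0.402% of all genes, and the median difference was -0.60 log2 units against -0.16 over all genes. Entpd4, which encodes a nucleotide-cleaving enzyme of the Golgi and lysosome, had medians of 4.32 RPKM (1.24 to 5.76) and 1.43 RPKM (0.920 to 1.63). The number 1 library of the first series fell within the range of the second. It differed by -1.21 ± 0.27 log2 units (limma adjusted p = 0.0405). Pdxk differed by -1.16 ± 0.27 (limma adjusted p = 0.0415), Nos1ap by -1.23 ± 0.29 (limma adjusted p = 0.0424) and Pptc7, a mitochondrial phosphatase, by -0.95 ± 0.23 (limma adjusted p = 0.0436). The mitochondrial share went the other way, at 20.5% ± 13.8 in the first and 34.3% ± 8.80 in the second series. The count was fragile: it was 68 without title number 1, 0 without any other single title number, 0 without the number 9 library of the first early unloaded series, and 0 with the share as a term. It was 33 without the number 1 library of the first early free-moving series and 23 without the number 5 library of the late noise free-moving series, which enter through the title number terms and the shared spread.

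Within series, the level of the genes was set against the mitochondrial share, which a rule on series means does not use. Of the 80 genes, 70 (87.5%) fell as the share rose and 0 rose, against 74.7% and 3.69% of all genes. Under quantile normalization 42 were called. The median slope was -0.32 log2 units per doubling of the odds of the share, against -0.20 over all genes. The steepest was that of Arl10, a small GTPase of the Arf-like family, at -0.80 ± 0.12 (limma adjusted p = 2.09e-07). Next were Zkscan16 at -0.68 ± 0.10 (limma adjusted p = 2.02e-07), Sstr1 at -0.65 ± 0.09 (limma adjusted p = 5.25e-08) and Prepl at -0.63 ± 0.10 (limma adjusted p = 2.6e-07). Shc3 had the most positive slope and was not called. The 80 genes also rose and fell together within series: the median correlation over 3160 pairs was 0.688, against 0.389 over all pairs of the 12550 genes. These pairs share the same libraries, depth and mitochondrial share.

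**Figure D5:**
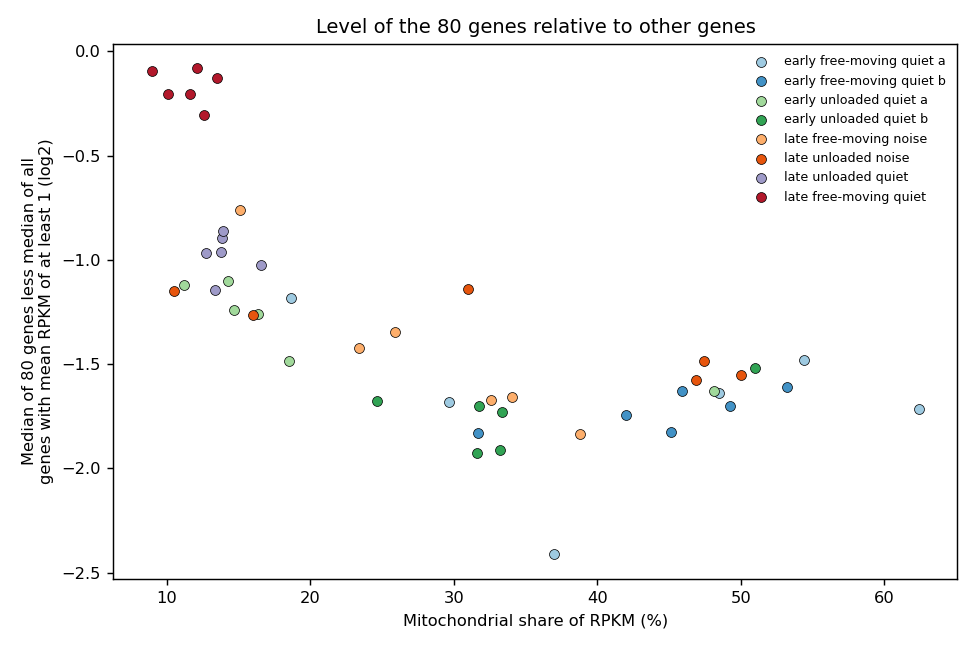
Each point is 1 of 48 libraries, with the percent of RPKM in mitochondrially encoded genes on the horizontal axis and the median of the 80 genes less the median of the 12550 genes, in log2 units, on the vertical axis. The late quiet free-moving libraries lie between -0.30 and -0.08 at shares of 8.95% to 13.5%. Libraries of other series with shares as low, down to 10.49%, lie below them.

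The course over title numbers was fitted as a daily wave, taking the numbers as hours of a period of 24, which is an assumption. Hspa1b was the only 1 of the 80 genes called, against 1.76% of all genes. Its fitted amplitude was 0.72 log2 units with a peak at 3.36 (limma adjusted p = 0.00194). Hspa1b was at 16.8 RPKM at number 1 and 2.78 at number 17 in the late noise free-moving series, and at 6.83 and 1.42 in the second early unloaded series. In the late quiet free-moving series the highest value, 23.0 RPKM, was at number 9, and in the second early free-moving series 15.8 RPKM was at number 9. The call was lost without title number 13, 19 genes were called without number 1, and 2 without the number 1 library of the first early free-moving series alone or under quantile normalization. Among the next smallest p values were those of Tubgcp4, a subunit of the microtubule-nucleating ring complex (amplitude 0.22, limma adjusted p = 0.0903), Gfod1 (0.18, limma adjusted p = 0.122), Npffr1 (0.24, limma adjusted p = 0.156) and Zfp526 (0.16, limma adjusted p = 0.306).

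Annotated features, which the rule did not use, were compared next. The gene span had a median of 63970 bases, against 24500 over the 12421 matched genes of the 12550, and 43 of 80 (53.8%) exceeded the upper quartile of all genes. For the transcript with the longest coding sequence per gene, that sequence had a median of 2162 bases against 1389, and the transcript 4144 against 3000. The GC content of the transcript was slightly lower, at 49.3% against 51.0%. Adgrl3, Ptprn2 and Tenm3 were among the long genes. The mean level over all libraries, which the rule did use, had a median of 3.38 RPKM against 7.83. By chromosome, the shares furthest above those of all genes were on chromosome 12 (7 genes, 8.75% against 3.55%), chromosome 8 (8 genes, 10% against 5.37%) and X (6 genes, 7.5% against 3.3%), and those furthest below on chromosome 9 (1 gene, 1.25% against 5.65%), chromosome 2 (3 genes, 3.75% against 8.05%) and chromosome 7 (3 genes, 3.75% against 7.69%). The exons of 40 of the 80 genes overlapped those of another annotated gene, so that counts of these could include reads of the neighbour. For 17 of the 80 the neighbour was a protein-coding gene on the other strand. No such share was computed over all genes, so whether these numbers are unusual is not known.

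By gene family, assigned from symbols, kinases and phosphatases gave 5 of the 80 genes (6.25%, against 2.46% of the 12550): Ptprn2, Dusp4, Ptprz1, Stk24 and Pik3c2a. Small GTPases and their regulators gave 3 (3.75%, against 2.1%), as did zinc-finger factors (3.75%, against 2.8%). Sugar and sulfate transferases gave 0, against 0.685%. In the wider families, beside 50.9% of all genes higher and 1.88% lower, the early unloading calls were 201 higher and 5 lower of 309 kinases and phosphatases, 181 and 0 of 264 small GTPases and regulators, and 184 and 1 of 351 zinc-finger factors.

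Genes outside the set followed the same pattern over the 48 libraries. The 5 with the highest correlation to the mean of the 80 were Dpp8 (r = 0.991), Ncoa1 (0.985), Sptbn1 (0.981), Dhx9 (0.98) and Hnrnpul2 (0.979). Dpp8, a cytosolic dipeptidyl peptidase, stood at 11.7 RPKM in late quiet free-moving mice and 7.65 in late quiet unloaded mice, at rank 165 by the margin. Hnrnpul2, a nuclear RNA-binding protein, stood at rank 1328 with 55.2 and 44.4 RPKM. The libraries share depth and composition, and these values are descriptions.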

How the data were processed

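Total RNA of 48 pooled hypothalamus samples was measured by RNA-seq. The authors deposited 1 table of RPKM values; per the submitters' processing notes CASAVA 1.8 and HISAT were used, while annotation, build and counter were not given in the sources used here. Groups and title numbers were taken from the labels. RPKM divides by a total that includes mitochondrial RNA, so a larger mitochondrial share lowers all other values. The values are not counts, so genes with mean RPKM of at least 0.5 (13685) were tested with limma 3.58.1 (R 4.3.3) on log2(RPKM + 0.5), with a trend, all 48 libraries, and a term per series and per title number. Fold changes of low genes are understated on that scale. Depth was estimated from steps of up to 12 reads (62.7% to 68.4% of values whole within 0.02 reads, 4% by chance). The members, lists and tests were chosen with earlier results of these data known. Genes named beyond the largest margins were the called genes of smallest p per comparison, the steepest slopes, and the neighbours of the threshold, plus examples of each role chosen after their values were seen. The end-of-message search and 3 single-library omissions were added after seeing the data. Values of 1 of the 80 genes by itself are not reported here. The test was checked on simulated data. Nothing in the labels says that libraries of a series are independent cultures or cohorts, so p-values measure the spread between pools. Alternatives were another pseudocount, no filter, quantile normalization, removal of mitochondrial genes, no title number term, the mitochondrial share as covariate, only the compared series, and leaving out libraries. Sequences come from RefSeq (GRCm38.p6) and GENCODE M21.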

Additional observations from a re-analysis of the deposited data

Results flagged for a closer look

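The effect of unloading differed between noise and the early quiet series, by a test of the difference itself, for 6 of the 80 genes, all lower, against 24.6% of all genes. Its median was nevertheless -0.46 log2 units over the 80 genes, against -0.34 over all genes. The differences were -0.96 ± 0.23 log2 units for Nr4a3, -1.01 ± 0.38 for Adcy3, -0.67 ± 0.19 for Itgb8, -0.69 ± 0.22 for Nufip2, -0.57 ± 0.19 for Zfp526 and -0.54 ± 0.19 for Ptprz1 (SE), with limma adjusted p from 0.0435 to 0.0491.

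Single libraries stood far from the other 5 of their series in 5 of 50 sets of values examined, where chance gives about 1 in 20. The mitochondrial share was 48.2% in the number 1 library of the first early unloaded series (next 18.5%), 51.0% in the number 21 library of the second early unloaded series (next 33.4%) and 16.6% in the number 21 library of the late quiet unloaded series (next 13.9%). Hspa1b was at 5.93 RPKM in the number 1 library of the first early unloaded series (next 3.87) and at 15.8 RPKM in the number 9 library of the second early free-moving series (next 6.13).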

How the results depend on the processing

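All 80 genes remained highest in the late quiet free-moving series under every alternative run, and 64 to 79 stayed within the first 100 ranks under other scalings and pseudocounts (71 to 78 with libraries left out). The rule, with margins of at least 0.66 log2 units, largely fixed this in advance, so these counts are descriptions. Counts of the 80 genes called moved as follows, given without the share of all genes called under each setting. For early unloading (48) they were 21 under quantile normalization, 30 with mitochondrial genes removed and 0 with the share as covariate, and 0 to 60 with libraries left out. For late noise against early quiet (56) they were 3, 27 and 0, and 17 to 57. For unloading under noise (0) they were 1 under quantile normalization and 2 with only the compared series, and 0 to 0 with libraries left out. For noise in unloaded mice (71) the covariate gave 0 and omissions 23 to 71, and for late against early unloaded (74) 40 and 70 to 76. Between the early free-moving series (0) the 3 settings gave 4, 3 and 6, and omissions 0 to 2. Between the early unloaded series (10) they gave 35, 34 and 0, pseudocount 0.1 gave 2, no filter 0, only those series 37, and omissions 0 to 68. For the course (1) quantile normalization gave 2 and omissions 0 to 19, and for the mitochondrial slope (70) they gave 42 and 65 to 73. The cause of these moves was not tested, other than that some settings test fewer samples. Libraries of the same title number but different series had a median correlation of deviations of 0.0821 (168 pairs), against -0.0155 (840 pairs), so the numbers share little. Without the replicate block the early unloaded count was 0, and no other count moved by over 1.5 times. Over 30 single-gene results none reversed in direction. Those that are amplitudes of the course cannot be negative, so they could not reverse. A call was lost in 61 of the runs of the 30 results under other settings and gained in 6, while 409 runs were unchanged in this respect. Unchanged runs include those of genes called neither in the main fit nor in the other setting. With the mitochondrial share as covariate 16 results lost their call and 10 were unchanged. Without title number 9, and likewise without number 17, 8 lost it. RPKM values of low genes rest on few reads, and their depth is only estimated.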
